A study of Drosophila melanogaster with 12 samples.

Results

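Glutathione S-transferases (GSTs) and UDP-glycosyltransferases (UGTs) are the conjugating enzymes of detoxification. A GST joins the tripeptide glutathione to a reactive compound, and a UGT, held in the membrane of the endoplasmic reticulum, transfers a sugar from a UDP-sugar to a small lipophilic compound. Both products are more soluble than the starting compound and are exported from the cell. In *Drosophila*, as in other insects, the Delta and Epsilon classes of GSTs have expanded and are known for the breakdown of insecticides and of lipid peroxidation products, whereas the Theta, Omega and Zeta classes are shared with mammals.

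The genes described here were found by their symbols, namely GstD, GstE, GstS, GstT, GstO or GstZ followed by a number, or Ugt followed by a number. Of 16997 genes, 52 matched, comprising 35 GSTs and 17 UGTs. By symbol, the GSTs were 11 of the Delta class, 14 Epsilon, 4 Theta, 3 Omega, 2 Zeta and 1 Sigma. The UGTs were 8 of the Ugt86D group, 3 each of Ugt36B and Ugt37, 2 of Ugt35 and 1 of Ugt58F. All 52 were matched by current or earlier symbol to a gene of release 6 of the genome annotation. All 17 UGT symbols are written differently there, so that Ugt86Dd is now Ugt35C1 and Ugt36Bc is now Ugt37D1, and the older symbols of the data are kept below.

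RNA came from whole flies of 3 genotypes, with 4 samples each of Ub6-GG, Ub6-Stop and Control, 12 in all. Ub6-GG flies expressed a non-cleavable head-to-tail hexa-ubiquitin that ends in the di-glycine needed for conjugation, and Ub6-Stop flies expressed the same chain without that end. Both transgenes were inserted at Attp40. Control flies had the background of the Ub6 lines and no Ub6 transgene. All 3 groups carried one copy of sqh-Gal4, a driver that follows the promoter of *spaghetti squash* and acts in all tissues and at all stages. The flies were 1 day old, and each sample pooled 10 of them, with their sex not given in the labels. The value analysed for each gene is the authors' mean level over all 12 libraries in log2 CPM, that is, the log2 of a gene's reads scaled to a common library total. It holds the 3 groups together, so that no level of a single genotype and no spread between libraries is given below, and all comparisons are between genes. The reads were primed from the poly(A) tail and come from the 3′ end of a transcript, which means that a level does not grow with transcript length and can be compared between genes without a length term. In RNA of whole animals, few cells with a high level of a transcript and many cells with a low level cannot be told apart.

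The depth was read from the level given to genes with no read, 0.25 log2 CPM or 1.19 CPM, which lies above 0 because of a prior count in the authors' fit. With a prior count of 2, an assumption, this level gives an average library of 1684423 reads, in which 1 read is 0.594 CPM. Reads over all 12 libraries were recovered for each gene from the same relation. A total of 542 genes came out at 1 read (between 0.923 and 1.11), and these took 12 distinct values, as many as there are libraries. For a gene with no read in any library, the upper limit of the expected count was set at 3 reads, or 0.148 CPM at this depth. For genes with reads, intervals below are 95% Poisson intervals of the recovered reads. All of them cover counting error only. Of 30 markers of eye, neuron, flight muscle, gut, fat body, ovary, testis, accessory gland and hemocyte, 29 had reads and Acp95EF had none, so that tissues of both sexes were present. The 3 hemocyte markers had the lowest median of these tissues, 1.25 log2 CPM.

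Reads were recovered for 49 of the 52 genes (94.2%), against 87.1% of all genes. The 3 without a read were GstD6, Ugt36Bb and Ugt37a1. The GSTs had a median level of 3.55 log2 CPM, or 11.7 CPM, above 62.3% of all genes, while the median of the UGTs was 1.15 log2 CPM, or 2.23 CPM, above 32.6%. The median of all genes was 2.64 log2 CPM, or 6.22 CPM. Above it lay 25 of the 35 GSTs (71.4%) and 5 of the 17 UGTs (29.4%). The genes were chosen by name and those with a name in this table were in general higher, with a median of 3.56 log2 CPM over 7579 such genes, which is close to the median of the GSTs. After removal of the prior count the GSTs together made up 0.442% of the transcripts counted, and the UGTs 0.00814%.

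**Figure D1:**
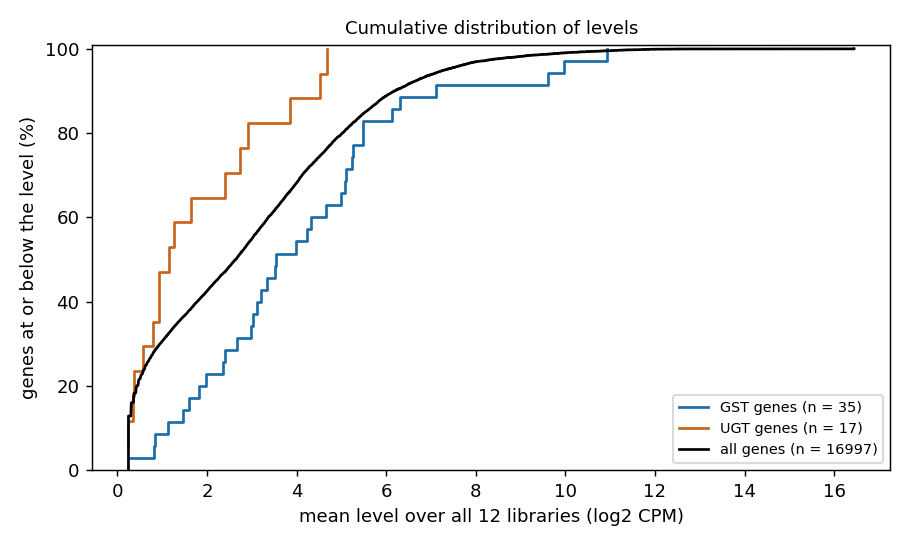
Cumulative share of genes (%) at or below each mean level (log2 CPM over all 12 libraries) for the 35 GSTs, the 17 UGTs and all 16997 genes. The GST line lies to the right of the line of all genes over most of its length and the UGT line to the left, with medians of 3.55 and 1.15 log2 CPM against 2.64 for all genes.

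The GST transcripts were concentrated in 3 genes. GstS1, the only Sigma class gene of the fly and known as an abundant protein of the flight muscle that conjugates lipid peroxidation products, had the highest level at 1957 CPM (39534 recovered reads, interval 39145 to 39925) and was number 77 of all genes. GstD1, a Delta class enzyme known to break down DDT, followed at 1002 CPM and number 164 (20233 reads), and the Epsilon class gene GstE12 at 788 CPM and number 213 (15913 reads). GstS1 was 1.95 times as abundant as GstD1 and 2.48 times as abundant as GstE12, after removal of the prior count from both. The next, GstE11, was at 139 CPM, 5.73 times below GstE12 (ratio interval 5.43 to 6.04). GstS1 alone gave 43.6% of the summed CPM of the GSTs, the 3 highest genes 83.5% and the 5 highest 88.4%. Of the summed CPM of the UGTs, the highest gene took 25.0% and the 5 highest 75.5%. These shares include the prior count, which weighs more on low genes, and without it the 5 highest took 89.1% in the GSTs and 86.8% in the UGTs, and the 10 highest 94.3% in the GSTs and 97.9% in the UGTs. The families differ in their number of genes, so the shares are not directly comparable.

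**Figure D2:**
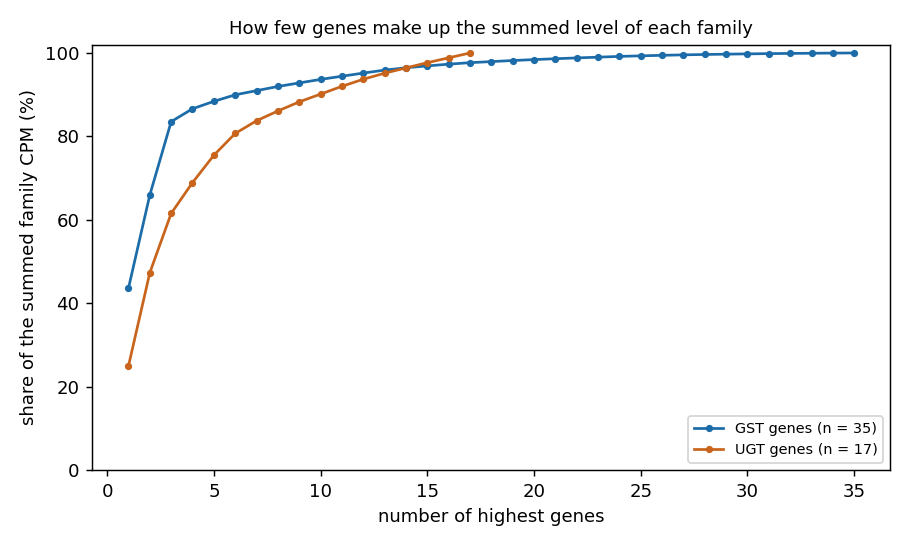
Share of the summed CPM of a family (%, vertical axis) held by its highest genes, added one at a time (horizontal axis), for the 35 GSTs and the 17 UGTs. The GST line reaches 83.5% with 3 genes and the UGT line 75.5% with 5.

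**Figure D3:**
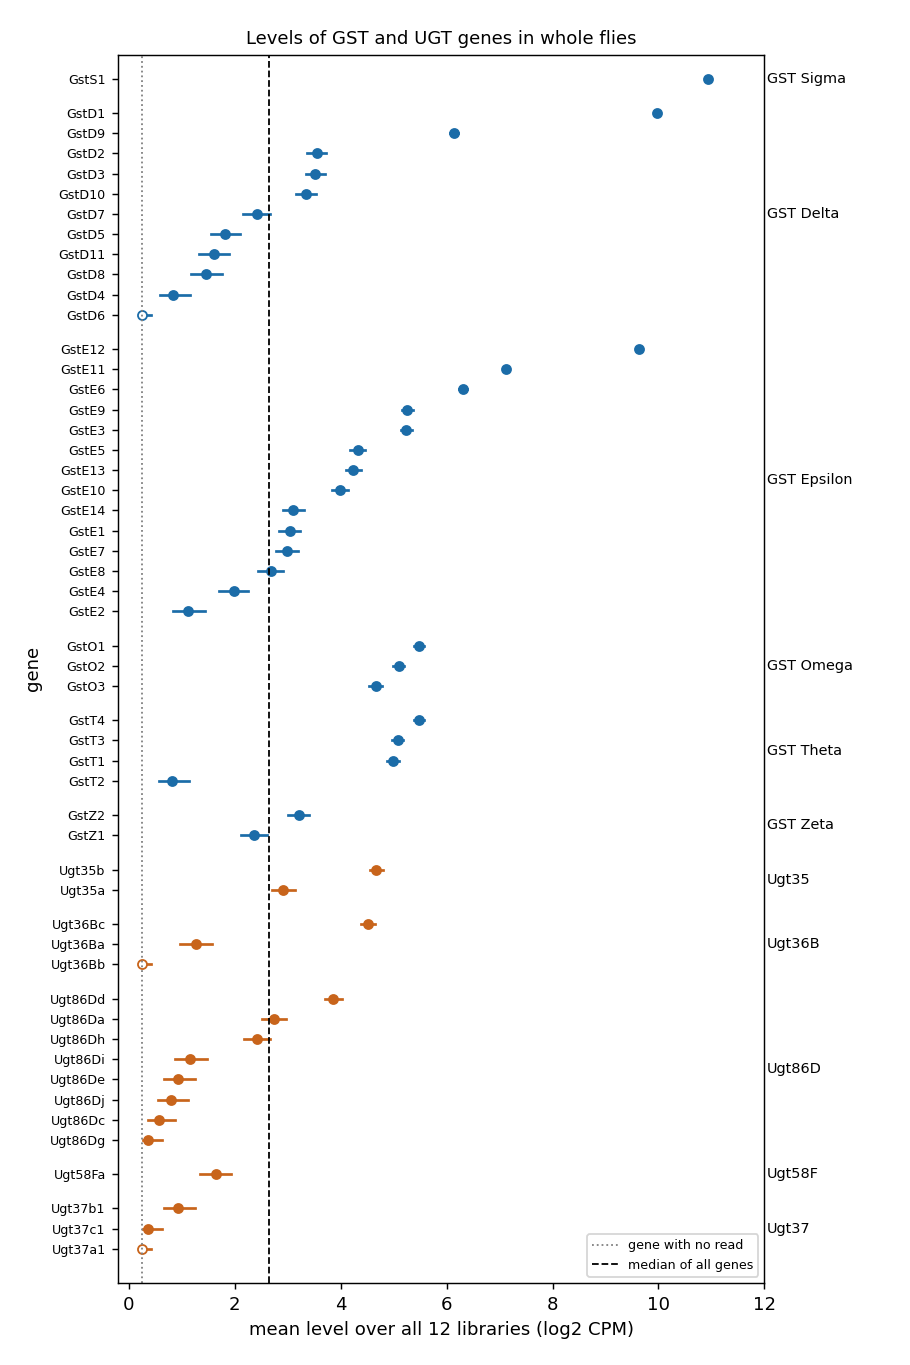
Mean level over all 12 libraries (log2 CPM, horizontal axis) of each of the 52 genes, grouped by GST class or UGT symbol, with 95% Poisson intervals of the recovered reads as bars. Open circles are genes with no read, whose bars reach the set limit of 3 reads. The dotted line is the level of a gene with no read (0.25) and the dashed line the median of all genes (2.64); the classes spread widely, with GstS1, GstD1 and GstE12 far to the right.

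The 11 Delta class genes ranged between 0.25 and 9.97 log2 CPM. Below GstD1, GstD9 had 70.6 CPM (1402 reads), 14.4 times less than GstD1. GstD2 with 11.7 CPM, GstD3 with 11.5 CPM and GstD10 with 10.1 CPM followed, and their read intervals overlapped from one to the next. The remaining Delta genes lay below the median of all genes. GstD7 had 83.5 reads over the 12 libraries, GstD5 47.4, GstD11 37.3, GstD8 31.4 and GstD4 12.0, which is about 1 read per library. GstD6 had none. The median of the class was 2.41 log2 CPM, and 5 of the 11 genes were above the median of all genes.

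The 14 Epsilon class genes were all detected, and 12 lay above the median of all genes. Their median was 4.12 log2 CPM, or 17.3 CPM. After GstE12 and GstE11 came GstE6 with 79.5 CPM, GstE9 with 38.3 CPM and GstE3 with 37.8 CPM, of which the last 2 cannot be ordered by their reads (750 and 740). GstE5 had 19.9 CPM, GstE13 18.9 CPM and GstE10 15.9 CPM. GstE14, known as *noppera-bo* and required for the synthesis of the moulting hormone ecdysone, had 8.61 CPM (150 reads), close to GstE1 with 8.19 CPM and GstE7 with 7.95 CPM. GstE8 had 6.39 CPM, GstE4 3.94 CPM and GstE2, the lowest of the class, 2.18 CPM, a recovered total of 20.0 reads (interval 12.2 to 30.9). GstE6 was therefore 79.1 times as abundant as GstE2 (ratio interval 48.7 to 136), although the genes belong to one class.

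The Omega and Zeta classes were more even, and the Theta class was so only apart from GstT2. GstO1, GstO2 and GstO3 had 44.8, 34.2 and 25.3 CPM, a range of 1.81 times between the highest and the lowest. This range leaves out the Omega gene *se*, which the symbol pattern misses and which was lower with 14.7 CPM. Omega enzymes are known for thiol transfer rather than for conjugation. Of the Theta class, GstT4 had 44.6 CPM, GstT3 33.8 CPM and GstT1 31.9 CPM, whereas GstT2 had 1.75 CPM (11.4 reads, interval 5.80 to 20.2), 54.2 times less than GstT1 (ratio interval 28.3 to 116). GstO1 and GstT4 did not differ beyond counting error, with 882 and 878 reads. GstZ2 and GstZ1, of the class known for maleylacetoacetate isomerase activity in tyrosine breakdown, had 9.23 and 5.15 CPM, a ratio of 2.03 (interval 1.39 to 2.98).

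The UGTs were all low beside the leading GSTs. Among the 17 with a Ugt symbol, Ugt35b (now Ugt35B1) was the highest with 25.5 CPM (491 reads) and number 4035 of all genes, 80.5 times below GstS1. CG3797 and CG10178, UGTs under another symbol that are described at the end, were higher with 47.2 and 30.3 CPM. Ugt36Bc had 22.8 CPM (437 reads), and the ratio of Ugt35b to it was 1.12 (interval 0.934 to 1.35), so that the 2 cannot be ordered by counting. Ugt86Dd, known for its part in the resistance of fly larvae to nicotine, came next with 14.5 CPM (269 reads). Ugt35a had 7.54 CPM and Ugt86Da 6.69 CPM, which completes those of the 17 above the median of all genes. Below it, Ugt86Dh had 83.7 reads over all libraries, Ugt58Fa 38.8, Ugt36Ba 24.4, Ugt86Di 21.0, Ugt37b1 14.5, Ugt86De 14.3 and Ugt86Dj 11.1. Ugt86Dc with 5.84 reads, Ugt37c1 with 2.07 and Ugt86Dg with 1.93 were at the limit of detection. Grouped by the older symbols, Ugt37 was the lowest, with no gene above 1 log2 CPM. This order rests on those symbols, since Ugt36Bc, at 4.51 log2 CPM, is now Ugt37D1 and Ugt86Dd is now Ugt35C1.

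In order of level, 11 of the 34 steps between one GST and the next and 3 of the 16 between UGTs were larger than counting error, judged by intervals that do not overlap. The spread between libraries would widen these intervals, and how far was not tested. Among the GSTs, each of GstS1, GstD1, GstE12, GstE11, GstE6 and GstD9 stood apart from the next below it. Among the UGTs the steps lay below Ugt36Bc, Ugt86Dd and Ugt86Dh.

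The genes were chosen by symbol, and genes of one symbol series, such as GstD2 to GstD8, lie side by side. Position is therefore not independent of the choice, and the share of all genes in comparable runs was not computed. In the gene order of release 6, 40 of the 52 lay in 9 runs, counting genes as neighbours when at most 1 other annotated gene lay between them. Chromosome arm 3R held 13 GSTs and 10 UGTs, arm 2R 17 GSTs and 2 UGTs, arm 2L 5 UGTs, arm 3L the 3 Omega genes and the X chromosome GstT3 and GstT4. The files use the dm3 build, so that no coordinates are given. Summed levels of runs, and shares of them, include the prior count. The Delta genes stand in 2 runs on 3R, parted by 2 annotated elements that code for no protein. The run of GstD10, GstD9 and GstD1, all on the minus strand, had a summed level of 1083 CPM, 92.5% of it from GstD1. The run of GstD2, GstD3, GstD4, GstD5, GstD6, GstD7, GstD8 and GstD11, all 8 on the plus strand, summed to 40.8 CPM, and none of its genes was above 11.7 CPM.

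Likewise on 2R, GstE10, GstE1, GstE2 and GstE3 formed one run and GstE4 to GstE9 another, with 2 noncoding annotations between them. Next to each other in these runs lay genes of very different levels. GstE3 was 36.9 times as abundant as its neighbour GstE2 (ratio interval 22.2 to 65.0), GstE6 was 11.6 times as abundant as GstE7 (9.32 to 14.5) and GstE9 was 7.14 times as abundant as GstE8 (5.48 to 9.38). The UGT run on 3R held 9 genes in the order Ugt86Di, Ugt86Dc, Ugt86Da, Ugt86Dg, Ugt86De, Ugt35b, Ugt35a, Ugt86Dj and Ugt86Dh. Ugt35b gave 47.5% of its summed CPM, and it stood beside Ugt86De, which was 34.3 times lower (ratio interval 18.8 to 68.0). In the run of Ugt36Ba, Ugt36Bb and Ugt36Bc on 2L, 86.4% of the summed CPM came from Ugt36Bc and no read from Ugt36Bb.

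**Figure D4:**
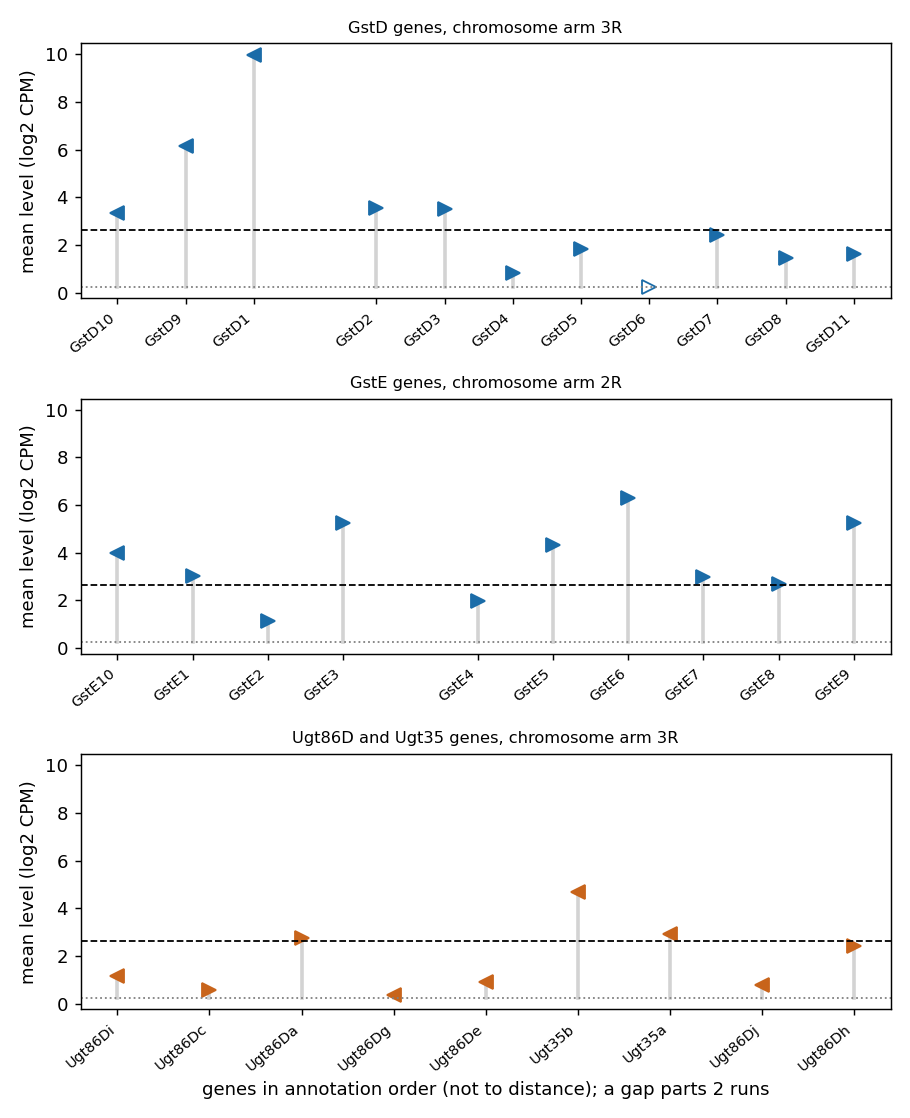
Mean level (log2 CPM over all 12 libraries, vertical axis) of genes in the Delta, Epsilon and Ugt86D and Ugt35 runs, in annotation order and not to distance, with triangles pointing along the strand, right for plus and left for minus. An open triangle is a gene with no read, the dotted line its level (0.25) and the dashed line the median of all genes (2.64); genes that stand side by side differ by up to several log2 units.

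The 12 genes outside the runs included GstS1, GstE12 and GstE11. The 7 GSTs that stood alone had a median of 5.48 log2 CPM and none below 3.11, against a median of 3.27 log2 CPM for the 28 GSTs in runs. The 5 UGTs alone were Ugt86Dd, Ugt58Fa and the 3 Ugt37 genes. Ugt86Dd missed the run of the other Ugt86D genes by 2 protein-coding genes, mAcon2 and CheA86a. Genes of one run are paralogs and may share reads, and how reads that match several genes were counted is not given in the sources used here, so that low levels within runs are uncertain.

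Gene structure was not used in choosing the genes. By the canonical transcript of the annotation, 16 of the 35 GSTs have a single exon, all of them Delta (7) or Epsilon (9), with a median level of 2.83 log2 CPM, while the 19 GSTs with more than 1 exon had a median of 4.99. The highest single-exon GST was GstE6. All 16 single-exon GSTs lie in the runs above, and the 7 GSTs outside runs all have more than 1 exon. Among GSTs in runs, those with more than 1 exon ranged from 0.810 (GstT2) to 9.97 log2 CPM (GstD1). The single-exon GSTs ranged from 0.25 (GstD6) to 6.31 log2 CPM (GstE6). Whether exon number goes with level within runs was not tested. The uncertainty from reads shared by paralogs applies to the single-exon GSTs too. Of the UGTs only Ugt36Ba and Ugt37c1 have a single exon. The encoded GSTs are between 199 (GstD3) and 268 (GstT3) amino acids long, and the UGTs between 516 and 543. No member overlaps another gene on its own strand. On the other strand 8 do, among them GstE12 with CG3894, GstE9 with *imd*, GstO2 with *se*, and GstE10 and GstE1 with each other. Whether the counting used the strand is not given in the sources used here, so reads of such pairs cannot be told apart.

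The other genes of the pathway were taken from a fixed list, of which 25 genes are given here. Of these, 22 had reads and 17 were above the median of all genes. Among all genes with a name, 87.9% had reads and 62.0% were above that median, so the counts are not read as a trait of the pathway. Gclc and Gclm, the catalytic and modifier subunits of the enzyme that limits glutathione synthesis, had 96.1 and 81.8 CPM. The reads of Gclm (1630) lay within the interval of GstE6 (1506 to 1663). Both genes for the next step, glutathione synthetase, were listed at 0 reads (GSS and CG32495). They are close copies of each other, and how reads shared by copies were counted is not given in the sources used here, so that this is uncertain. Ggt-1, a gamma-glutamyl transferase that breaks glutathione down, had 135 CPM. Among other enzymes that use glutathione or keep thiols reduced, PHGPx, a peroxidase, had 301 CPM, Trxr-1, the thioredoxin reductase that stands in for glutathione reductase in flies, 185 CPM, the microsomal transferase Mgstl 44.6 CPM, and *se*, an Omega class enzyme of eye pigment synthesis, 14.7 CPM. The other listed glutathione genes were Clic with 53.0 CPM, *gfzf* with 11.4 CPM, CG4829 with 8.29 CPM, CG33178 with 2.52 CPM, CG1492 with 1.59 CPM and CG33177 with 1.28 CPM. The ABC transporter MRP had 56.1 CPM and Mrp4 3.57 CPM.

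Of the UDP-sugar supply, UGP, which makes UDP-glucose, had 107 CPM and *sgl*, which makes UDP-glucuronate, 18.6 CPM, both above the UGT median of 2.23 CPM. The UDP-sugar transporter gene *frc* was listed at 0 reads. It overlaps Coq4 on the same strand. Of the regulators, *cnc* had 176 CPM and overlaps *fzo* on the same strand. Isoform C of *cnc* switches on many GST genes under oxidative stress, but reads were counted per gene, so its own level is not given. The partner of *cnc*, maf-S, had 92.7 CPM and its inhibitor Keap1 5.70 CPM. The xenobiotic receptor Hr96 had 17.3 CPM and *spineless* (*ss*), the fly homologue of the aryl hydrocarbon receptor, 7.96 CPM.

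**Figure D5:**
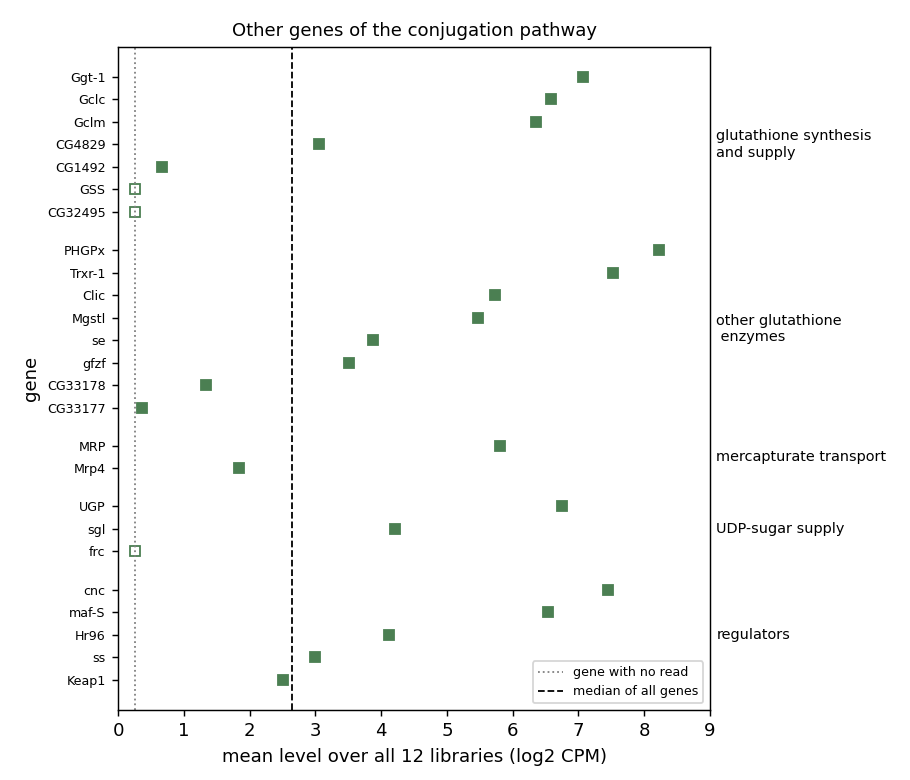
Mean level over all 12 libraries (log2 CPM, horizontal axis) of the 25 other pathway genes, by role; open squares are genes listed at 0 reads. The dotted line is the level of a gene with no read (0.25) and the dashed line the median of all genes (2.64), above which 17 of the 25 lie, beside 62.0% of all genes with a name.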

How the data were processed

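Whole-fly RNA of 12 samples was made by the authors into 3′ libraries (QuantSeq FWD, 250 ng of RNA), demultiplexed with CASAVA 1.8.2 per the submitters' processing notes, aligned to dm3 with STAR, tabulated per gene and compared in a count model. The authors deposited 2 tables. The mean log2 CPM over all libraries, the same in both tables, was used. The other 4 columns hold the authors' own comparisons with control (log2 fold change, likelihood ratio, p-value, FDR) and were not used. Levels per genotype, per sample, and differences between genotypes are not analysed here.

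Reads over all libraries were recovered as 12 × 2 × (2 to the power of the difference between a gene's value and the lowest value, minus 1), with a prior count of 2, the default of the authors' software, assumed. For 93.2% of 1221 genes with fewer than 3.5 recovered reads the result was within 0.15 of a whole number. On counts simulated with the same prior count, the median error over 2542 genes with reads was 1.13%. The simulation cannot check the assumed prior count, and this median does not give the error of genes with few reads. Recovered reads assume libraries of average size. Ratios between genes are taken after removal of the prior count, and their intervals, from the limits of both reads, are wider than 95%. Python 3.11.15, pandas 2.3.3 and scipy 1.17.1 were used, with the release 6 annotation of RefSeq and Ensembl (release 115), to which 16861 of 16997 symbols matched.

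The members and gene lists were chosen with earlier results of these data known. Named genes were the 12 highest of each family, the highest and lowest of each class and those with no read, and others complete each class. One item of the pathway list is not reported here. No test was made, since genes are not replicates. Alternatives covered the prior count, detection threshold, membership and the definition of neighbours.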

Additional observations from a re-analysis of the deposited data

How the results depend on the processing

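With the prior count removed, the highest GST took 44.0% and the 5 highest 89.1% of the summed level, and the highest UGT took 29.7% and the 5 highest 86.8%. The order of the families by the share of the 10 highest turned round, with 97.9% in the UGTs and 94.3% in the GSTs without the prior count, against 90.1% in the UGTs and 93.7% in the GSTs with it. When genes without reads were left out, the median of the members lay above 49.9% of genes, just below the middle gene (3.11 log2 CPM for both), against 55.0% with all genes. The number of members with a read was 49, of which 41 were above 1 log2 CPM and 44 had more than 1 read per library. Between 38 and 41 members lay in runs when no other gene or at most 3 were allowed between neighbours, and 40 when only protein-coding genes were counted, an alternative chosen after seeing the data. Removing the prior count moved 27 of the 52 levels by more than their counting error. The order cannot change, since the same amount is taken from every gene, and the column is identical in the other table, so neither is a check of stability. Not run, with no protein or promoter sequences used here, were protein identity, its relation to levels, the medians without near-identical members, and the share of promoters with the motif of CncC and Maf. Leaving out single libraries was not done, because the level used is already averaged over the 12. No paired analysis was possible because the column used carries no replicate numbers. Depth limits the 8 members with up to 12 reads over all libraries. The intervals of GstT2 and Ugt86Dj lay above the limit of 3 reads for the members with none, and those of the 3 other members with reads did not.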

Other observations

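The symbol pattern misses family genes that carried another symbol in these tables. The current annotation names 18 further genes as UGTs, and 17 of them had reads, with a median of 1.76 log2 CPM against 1.15 for the 17 UGTs described above. CG3797 (now Ugt316A1) had 47.2 CPM and CG10178 (now Ugt301D1) 30.3 CPM, both above Ugt35b with 25.5 CPM. CG30438 (now Ugt50B3) had 14.5 CPM and CG4302 (now Ugt49B1) 14.0 CPM. CG30438 overlaps the flight muscle gene TpnC4, at 560 CPM, on the other strand, so reads of the pair cannot be told apart. Over all 35 UGTs the median was 1.28 log2 CPM, and 11 were above the median of all genes. Without the prior count they made up 0.0208% of the transcripts counted, against 0.00814% for the 17 with a Ugt symbol. With *se* counted among the GSTs, the families held 71 genes and 67 with reads.

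The Omega gene *se* lies within the run of GstO3, GstO2 and GstO1 and had 14.7 CPM, the lowest of the 4. Only CG6475 (now Ugt49B2) of the further UGTs had no read.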
